A study of Mus musculus with 4 samples.

Results

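The gluconeogenesis enzymes of mouse liver were followed here through 10 genes fixed by symbol: G6pc and Slc37a4 of glucose release, Pck1, Fbp1 and Pcx of the bypass steps, Gpt2 and Gpt of alanine entry, and Got1, Mdh1 and Ldha of aspartate, malate and lactate handling. All probe sets annotated to these symbols were taken, which gave 20 of the 22690 probe sets on the Affymetrix array. Of these, 16 entered the test over 22626 probe sets, and the other 4 were Affymetrix control sets for Pcx, described by their values only. The study compared livers of 2 wild-type mice starved for 24 h with livers of 2 wild-type control mice, all of the C57/BL6 background and 1 month old, with total RNA from each liver on an array of its own. The titles and the treatment field give these groups, whereas the description field calls the starved mice injected and the control mice not injected, and what that refers to was not settled. The sources used here do not give the sex of the mice or when the controls last ate.

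Gluconeogenesis makes new glucose from lactate, alanine and other small molecules, and in the fasted state the liver is its main site. Most of its steps run glycolysis backwards, but the irreversible steps need enzymes of their own: pyruvate carboxylase and phosphoenolpyruvate carboxykinase return pyruvate to phosphoenolpyruvate, fructose bisphosphatase removes a phosphate further along, and glucose-6-phosphatase frees the sugar in the endoplasmic reticulum. Glucagon and glucocorticoids are known to raise transcription of Pck1 and G6pc, and insulin is known to lower it.

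None of the 16 member probe sets passed the test, limma with an adjusted p under 0.05, which 0.0575% of all probe sets passed. The smallest adjusted p among them was 0.0853, for a Gpt2 probe set. All 3 Gpt2 probe sets, the single Gpt probe set, the Pcx probe set and the Got1 probe set had both starved arrays above both control arrays, while G6pc, the weaker of the Pck1 probe sets and 1 of 4 Mdh1 probe sets had both starved arrays below both control arrays. That made 6 of 16 above and 3 of 16 below, against 21.3% and 20.6% of all probe sets, or 9 against 41.9% in either direction. At an unadjusted p under 0.05 in limma there were 5 higher and 1 lower, against 5.42% and 6.04% of all probe sets, or 6 against 11.5% in either direction. Gpt2 alone gave 3 of those above and 3 of those higher. The directions of G6pc, Pcx and Gpt2 were known when the members were chosen, so these counts cannot be read as an excess. With 1 probe set per gene, 4 of 10 lay above and 2 below, against 21.4% and 20.9% of all genes. By gene 3 were higher and 1 lower at that unadjusted p in limma, against 5.31% and 6.05%. The median log2 change over the 16 was 0.12, and 0.003 over all probe sets. It was 0.33 with 1 probe set per gene, 0.07 without _x_at and _s_at sets, 0.20 without starved 1 and 0.06 without starved 2. With 2 arrays a group the smallest p of an exact permutation test is 0.333, so none was run.

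**Figure D1:**
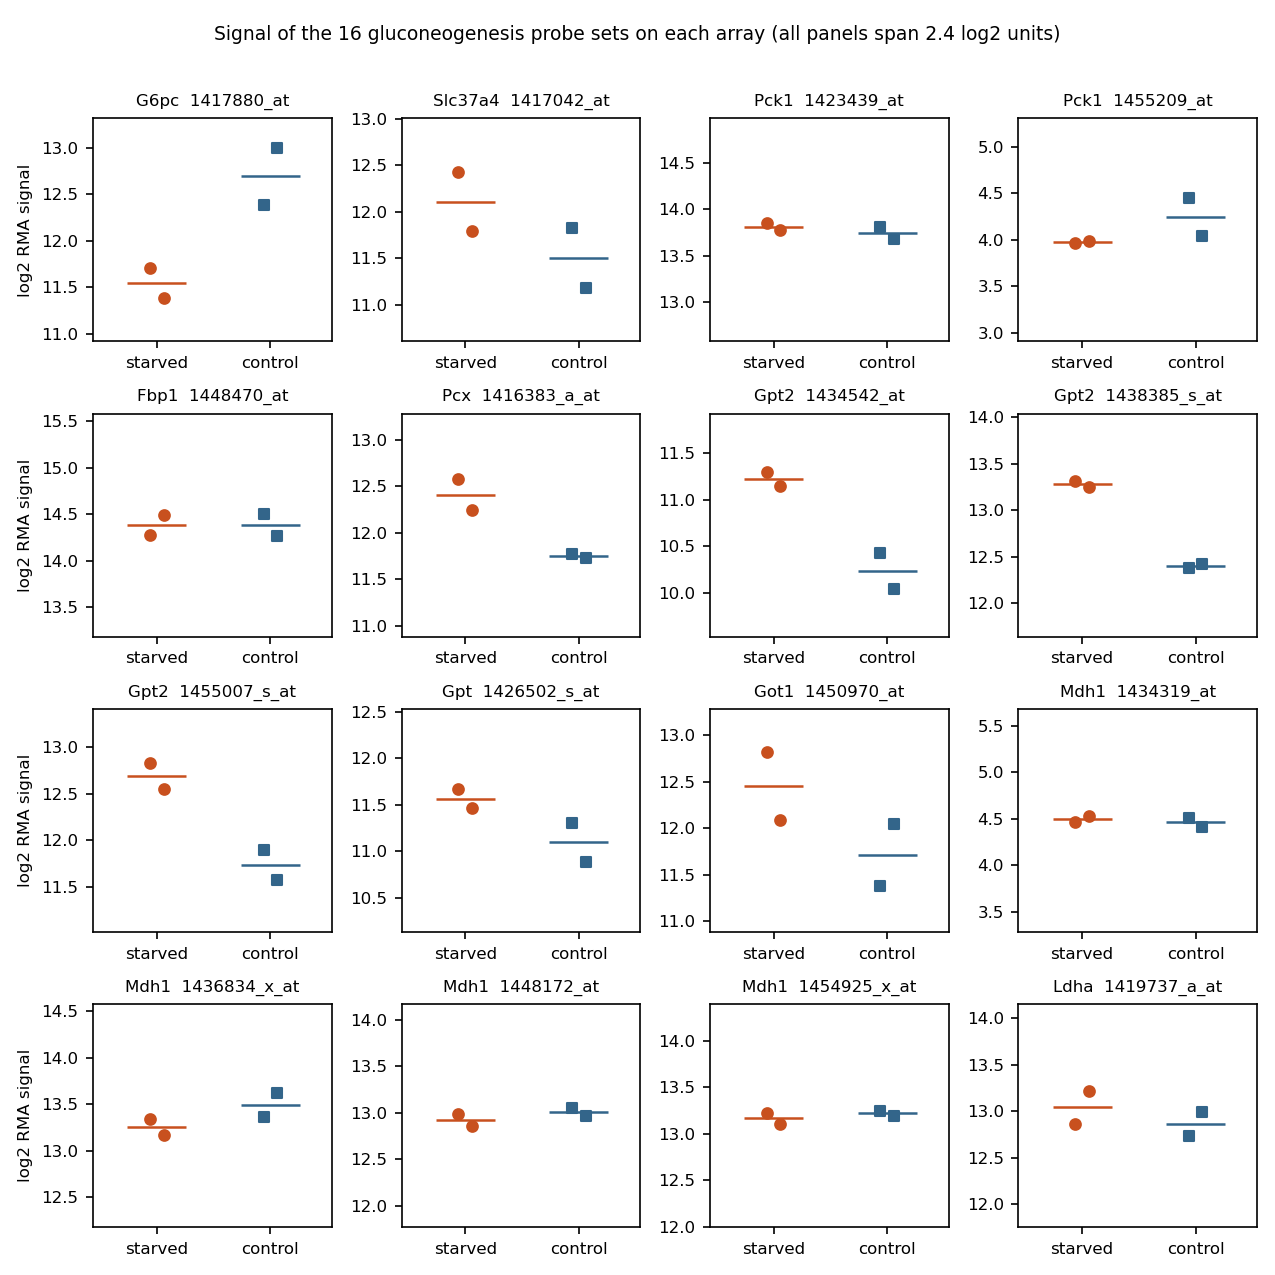
Log2 RMA signal (vertical axis) of the 16 gluconeogenesis probe sets on the starved arrays (circles) and control arrays (squares), with a line at each group's mean and every panel spanning the same range. G6pc lies lower on both starved arrays, the 3 Gpt2 panels and Pcx lie higher, and Fbp1 and the strong Pck1 probe set show overlapping groups.

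Signals are log2 values from RMA, the authors' summary of the probes of each set, and each change is the mean of the starved arrays less that of the control arrays. The 4 arrays correlated across probe sets at a Pearson's r of 0.994 between the starved arrays, 0.992 between the control arrays and 0.986 to 0.991 between groups, where probe sets are not independent replicates. The summed signal of 8 hepatocyte markers was 17.69 and 17.65 on the starved arrays and 17.66 and 17.59 on the control arrays (log2). The 3′ actin control set, whose excess over the 5′ set grows as RNA degrades, exceeded it by 2.06 and 1.85 on the starved arrays. On the control arrays this excess was 1.79 and 1.76, so the groups did not overlap. The same excess for Gapdh was 0.86 and 0.48 on the starved arrays, against 0.65 and 0.54 on the control arrays, with overlapping groups. The actin sets themselves, 3′, 5′ and the set named M, had changes of -0.62, -0.80 and -0.78 without overlap. Those of Gapdh had -0.04, -0.12 and -0.07 with overlap. Control 2 stood apart on acute phase genes: Orm2, a plasma glycoprotein of inflammation, read 9.10 and 9.25 on the starved arrays, 9.34 on control 1 and 13.79 on control 2, and Lcn2, Saa2 and Saa3 were likewise higher on control 2 than on control 1, by 4.14, 3.73 and 3.59. These were the 4 widest gaps of 11 such genes, and the narrowest was 0.15, for Fgb, a fibrinogen chain. Both starved arrays lay below both control arrays, control 1 included, for 8 of the 11, against 20.9% of all genes. At an unadjusted p under 0.05 in limma 4 of the 11 were lower in starved liver, against 6.05% of all genes. The part of RNA quality or of the acute phase difference in the results was not tested. Without control 2 the starved arrays lay above control 1 for 7 and below it for 6 of the 16 member probe sets, against 33.6% and 37.3% of all probe sets, or 70.9% together. On those arrays 5 were higher and 2 lower at an unadjusted p under 0.05 in limma, against 4.36% and 5.37%, or 9.73% together.

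The start regions of 5 members are shown because these genes include the opposite movers and Pck1, the member best known for hormonal control at its start site. The sequences are the 250 bases before the annotated start, 5′ to 3′ on the gene's strand, from RefSeq on GRCm38.p6. Capitals mark matches on either strand to 5 short motifs: TGACG, the core of cAMP response elements; CAAAACA, the core of insulin response elements; GTAAACA, a forkhead core; AGGTCA, a core bound by nuclear receptors; and TGTTCT, a core bound by the glucocorticoid receptor.
G6pc, chr11:101367466-101367715, + strand: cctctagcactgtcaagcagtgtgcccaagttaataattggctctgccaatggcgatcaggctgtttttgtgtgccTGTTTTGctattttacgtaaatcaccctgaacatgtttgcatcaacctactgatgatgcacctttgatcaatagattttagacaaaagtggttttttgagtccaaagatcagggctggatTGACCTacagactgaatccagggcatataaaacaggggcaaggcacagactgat
Pck1, chr2:173152823-173153072, + strand: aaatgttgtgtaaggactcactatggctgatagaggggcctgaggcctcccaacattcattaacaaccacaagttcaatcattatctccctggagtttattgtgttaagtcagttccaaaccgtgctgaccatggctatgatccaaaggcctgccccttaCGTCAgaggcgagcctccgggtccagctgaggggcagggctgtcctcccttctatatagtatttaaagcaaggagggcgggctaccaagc
Gpt2, chr8:85492326-85492575, + strand: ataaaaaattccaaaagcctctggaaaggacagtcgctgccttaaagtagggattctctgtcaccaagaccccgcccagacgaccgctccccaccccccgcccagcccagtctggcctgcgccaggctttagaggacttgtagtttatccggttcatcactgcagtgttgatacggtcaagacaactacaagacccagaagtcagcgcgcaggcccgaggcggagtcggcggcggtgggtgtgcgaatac
Pcx, start A, chr19:4510222-4510471, + strand: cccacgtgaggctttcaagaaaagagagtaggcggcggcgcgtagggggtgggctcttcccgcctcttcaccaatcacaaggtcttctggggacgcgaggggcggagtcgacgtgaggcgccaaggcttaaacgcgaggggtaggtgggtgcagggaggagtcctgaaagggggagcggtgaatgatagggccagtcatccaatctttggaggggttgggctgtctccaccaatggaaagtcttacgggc
Pcx, start B, chr19:4594069-4594318, + strand: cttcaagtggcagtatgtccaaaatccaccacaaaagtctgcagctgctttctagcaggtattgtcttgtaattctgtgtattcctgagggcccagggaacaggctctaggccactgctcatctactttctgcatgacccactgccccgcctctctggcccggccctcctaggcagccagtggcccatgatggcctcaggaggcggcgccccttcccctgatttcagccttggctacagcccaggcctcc
Got1, chr19:43524606-43524855, - strand: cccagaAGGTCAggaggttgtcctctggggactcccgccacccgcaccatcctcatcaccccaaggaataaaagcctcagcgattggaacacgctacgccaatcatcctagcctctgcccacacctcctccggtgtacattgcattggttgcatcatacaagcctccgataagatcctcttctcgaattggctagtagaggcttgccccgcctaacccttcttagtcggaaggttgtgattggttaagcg
The G6pc window held CAAAACA, read on the other strand as TGTTTTG, at position -174 from the start, a motif found in 5.56% of 32841 promoter windows of this length. It also held AGGTCA at position -54, as the Got1 window did at -244, and 14.0% of all windows hold that motif. The Pck1 window held TGACG, read as CGTCA, at position -90, and 17.8% of all windows hold it. The Gpt2 window and both Pcx windows held none of the 5 motifs. GTAAACA and TGTTCT, found in 3.17% and 16.1% of all windows, were in none of the 6 sequences. A match is a run of letters and not a shown binding site, and the absence of one says only that these letters are not in the window.

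Glucose release was the step at which the members parted most. G6pc, the catalytic subunit of glucose-6-phosphatase, read 11.70 and 11.38 on the starved arrays, against 12.39 and 13.00 on the control arrays. Both starved values lay under both control values, with a gap of 0.68 between the nearest arrays. Its log2 change of -1.15 ± 0.23 (SE, n = 2 per group) put it 2.22-fold lower in starved liver, with a 95% interval of -1.72 to -0.58, and did not pass the test (adjusted p = 0.176, limma). In liver tissue, fewer cells of a type and less RNA per cell cannot be told apart, here or in the other results. The G6pc change was -0.84 without control 2, where the signal was highest, and -1.46 without control 1. Each starved array was lower than each control array, by 0.68 in the closest pair and 1.62 in the widest.

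Slc37a4, the transporter that carries glucose 6-phosphate to that phosphatase, pointed the other way. It read 12.43 and 11.79 on the starved arrays, against 11.82 and 11.18 on the control arrays. Starved 2 and control 1 nearly coincided, so the groups overlapped by 0.03. The log2 change was 0.61 ± 0.29 (SE), 1.52-fold higher, with a 95% interval of -0.10 to 1.31 (adjusted p = 0.491, limma). The distance between the replicates was 0.64 in each group, larger than the change itself, which came to 0.29 without starved 1 and 0.29 without control 2. No test of the difference between the G6pc and Slc37a4 changes was made.

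Of the bypass enzymes, Pck1 showed little difference at its strong probe set. Pck1, the cytosolic phosphoenolpyruvate carboxykinase, read 13.85 and 13.78 on the starved arrays, against 13.81 and 13.68 on the control arrays with probe set 1423439_at. The groups overlapped, and the log2 change of 0.07 ± 0.12 (SE) had a 95% interval of -0.22 to 0.36, or 0.86-fold to 1.28-fold (adjusted p = 0.896, limma). This signal was above that of 99.5% of probe sets on the array. A second Pck1 probe set, 1455209_at, read 3.96 and 3.98 on the starved arrays, against 4.44 and 4.04 on the control arrays. It was a low signal, with 9.74% of probe sets below it, and its change of -0.27 ± 0.16 (SE) did not pass (adjusted p = 0.599, limma), at -0.47 without control 2 and -0.07 without control 1. The 2 probe sets thus gave changes that differ by 0.34 and in sign, and neither interval left out 0.

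Fbp1, the liver fructose bisphosphatase, read 14.27 and 14.49 on the starved arrays, against 14.51 and 14.27 on the control arrays. Each group held 1 higher and 1 lower array, and the means were 14.38 ± 0.15 and 14.39 ± 0.17 (SD). The log2 change was -0.005 ± 0.146 (SE), with a 95% interval of -0.36 to 0.35 that still allows a difference of 0.78-fold to 1.28-fold (adjusted p = 0.999, limma).

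Pcx, the mitochondrial pyruvate carboxylase that turns pyruvate into oxaloacetate, was the bypass enzyme with the largest change. It read 12.58 and 12.24 on the starved arrays, against 11.78 and 11.74 on the control arrays. The control arrays lay within 0.04 of each other and both starved arrays lay at least 0.46 above them. The log2 change of 0.65 ± 0.15 (SE), 1.57-fold higher with a 95% interval of 0.29 to 1.02, did not pass the test (adjusted p = 0.214, limma). It was 0.49 without starved 1, the array with the widest actin gap, and 0.82 without starved 2.

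The 4 Affymetrix control sets for Pcx gave a second reading of the same transcript, outside the test. The 3′ set read 12.30 and 11.93 on the starved arrays, against 11.56 and 11.37 on the control arrays, a difference of 0.65 with no overlap. The set named MB read 7.91 and 7.90 on the starved arrays, against 7.51 and 7.55 on the control arrays, a difference of 0.38. The MA set differed by 0.12 and the 5′ set by -0.09, each with groups that did not overlap, at mean signals of 7.12 to 7.31. Of these 4, the 3′ set alone differed by as much as the tested probe set. The excess of the Pcx 3′ set over its 5′ set was thus wider on both starved arrays than on the control arrays, as for actin. The part of RNA quality in the Pcx change was not tested.

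**Figure D2:**
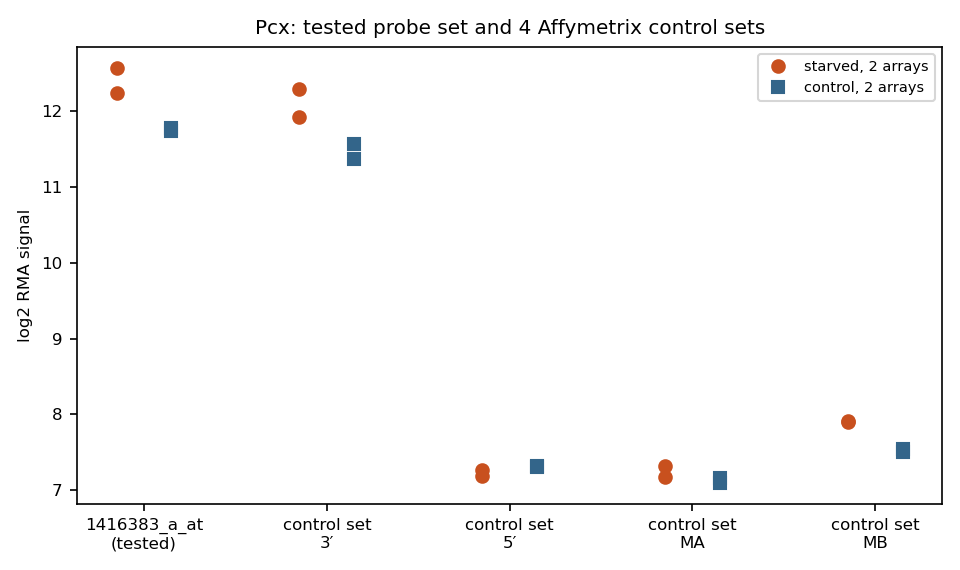
Log2 RMA signal (vertical axis) of the tested Pcx probe set and the 4 Affymetrix control sets for Pcx on the starved arrays (circles) and control arrays (squares). The tested set and the 3′ set show starved above control by 0.65 each, and the 5′ set shows it slightly below.

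For alanine entry the starved arrays lay above the control arrays at all 4 probe sets, none of which passed the test. Gpt2, the mitochondrial alanine aminotransferase that turns alanine into pyruvate, was read by 3 probe sets. With 1438385_s_at it read 13.31 and 13.25 on the starved arrays, against 12.38 and 12.43 on the control arrays. Both groups were tight, and the gap of 0.82 between them exceeded the distances of 0.06 between the starved and 0.05 between the control arrays. The log2 change of 0.88 ± 0.11 (SE), 1.84-fold higher, had a 95% interval of 0.60 to 1.16 and the smallest p of the members, the 72nd of 22626 probe sets, yet missed the threshold (adjusted p = 0.0853, limma). With trend and robust variance settings it passed (adjusted p = 0.0418, limma).

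The other Gpt2 probe sets gave changes of like size. With 1434542_at the signal was 11.30 and 11.14 on the starved arrays, against 10.42 and 10.04 on the control arrays, a change of 0.99 ± 0.16 (SE). With 1455007_s_at it was 12.83 and 12.56 on the starved arrays, against 11.90 and 11.57 on the control arrays, a change of 0.96 ± 0.17 (SE). The starved arrays were higher in all 4 pairings with control arrays in each, by 0.66 at the least, and neither set passed (adjusted p = 0.117 and 0.131, limma). The 3 changes lay within 0.11 of each other, and with 1 array left out they ran from 0.80 to 1.18. Probe sets ending in _s_at can bind transcripts of more than 1 gene, and the set without that ending gave the largest of the 3 changes.

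Gpt, the cytosolic alanine aminotransferase, had a smaller difference. It read 11.67 and 11.47 on the starved arrays, against 11.31 and 10.88 on the control arrays. The groups were 0.16 apart at their nearest, less than the 0.43 between the control arrays. The log2 change of 0.47 ± 0.18 (SE), 1.39-fold higher with a 95% interval of 0.04 to 0.91, did not pass (adjusted p = 0.404, limma) and was 0.26 without control 2 and 0.69 without control 1. Its single probe set is also an _s_at set. Over the 4 probe sets of alanine entry the median change was 0.92, and all 4 were higher at an unadjusted p under 0.05 in limma, against 5.42% of all probe sets. Of the 4, 3 read Gpt2, whose direction was known when the members were chosen.

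**Figure D3:**
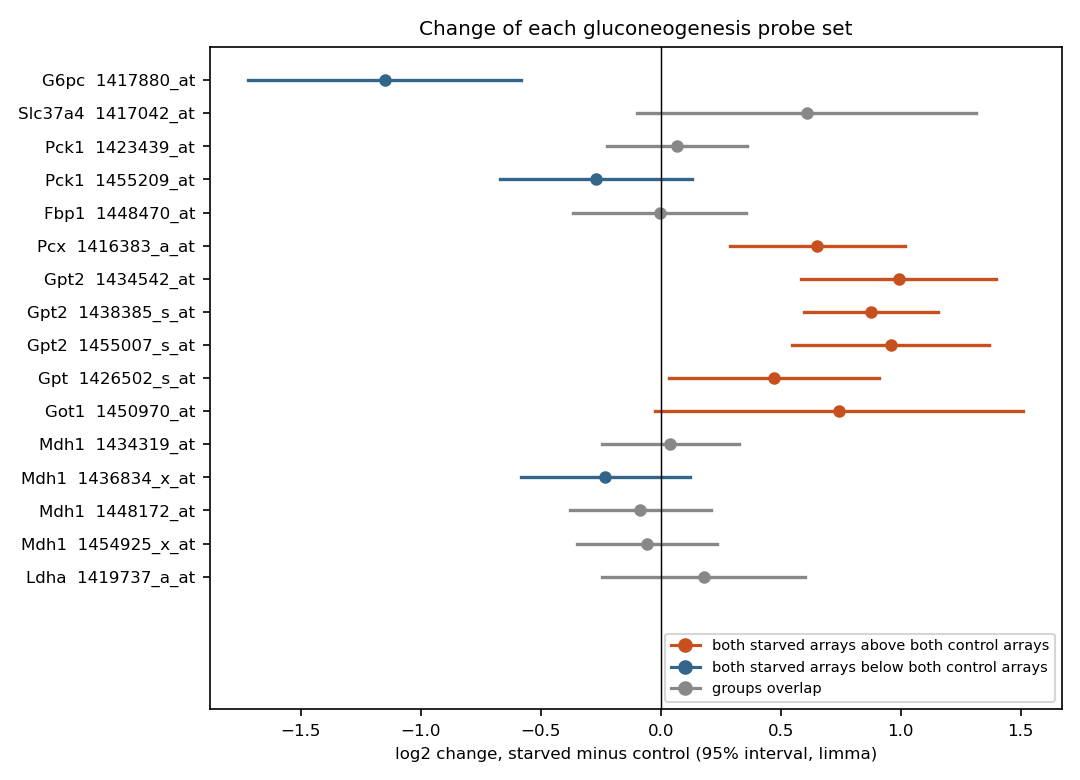
Log2 change, starved minus control (horizontal axis), of each member probe set as a point with its 95% interval from limma, coloured by whether the groups overlap. G6pc at -1.15 and the 3 Gpt2 probe sets at 0.88 to 0.99 lie farthest from 0, and the Mdh1, Fbp1 and Pck1 intervals all include 0.

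Enzymes that pass carbon and reducing power between mitochondria and cytosol were less uniform. Got1, the cytosolic aspartate aminotransferase that frees oxaloacetate from aspartate, read 12.82 and 12.09 on the starved arrays, against 11.38 and 12.05 on the control arrays. Starved 2 lay 0.04 above control 2, so the groups barely parted. The log2 change of 0.74 ± 0.31 (SE), 1.67-fold higher with a 95% interval of -0.03 to 1.51, did not pass (adjusted p = 0.446, limma). It was 0.38 without starved 1, 0.41 without control 1, 1.11 without starved 2 and 1.08 without control 2, and the arrays of a group were up to 0.73 apart.

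Mdh1, the cytosolic malate dehydrogenase that turns malate back into oxaloacetate, was read by 4 probe sets with changes between -0.23 and 0.04. With 1448172_at it read 12.99 and 12.86 on the starved arrays, against 13.05 and 12.97 on the control arrays. With 1436834_x_at it read 13.35 and 13.17 on the starved arrays, against 13.36 and 13.62 on the control arrays, and these groups parted by only 0.02, with a change of -0.23 that was -0.10 without control 2 and -0.36 without control 1. The third strong set, 1454925_x_at, had a change of -0.06 ± 0.12 (SE). The set 1434319_at gave a low signal of 4.47 and 4.53 on the starved arrays, against 4.51 and 4.41 on the control arrays, with 15.3% of probe sets below it. All 4 intervals included 0 (adjusted p = 0.608 to 0.947, limma), and that of 1448172_at ran from -0.38 to 0.21.

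Ldha, a subunit of lactate dehydrogenase that interconverts lactate and pyruvate and is made by many cell types besides hepatocytes, read 12.86 and 13.22 on the starved arrays, against 12.73 and 12.99 on the control arrays. The groups overlapped, and the change of 0.18 ± 0.17 (SE) had a 95% interval of -0.24 to 0.60 (adjusted p = 0.773, limma). The change was -0.0022 without starved 2, 0.05 without control 1, 0.31 without control 2 and 0.36 without starved 1. Summed markers of Kupffer cells were 12.98 and 13.09 on the starved arrays, against 12.98 and 13.31 on the control arrays, and those of sinusoidal endothelium 11.70 and 11.38 on the starved arrays, against 12.05 and 11.01 on the control arrays (log2), both with overlapping groups. The cholangiocyte marker sums did separate the groups, at 7.84 and 8.08 on the starved arrays, against 7.72 and 7.70 on the control arrays. Adipocyte marker sums barely parted, at 7.922 and 7.957 on the starved arrays, against 7.916 and 7.789 on the control arrays. Of the 5 measured cholangiocyte and 4 adipocyte markers, 2 in each list had signals below the array's lower quartile. In the acute phase and pancreatic acinar lists the summed signal also parted, with both starved arrays below. The part of any of these sums in the result was not tested.

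**Figure D4:**
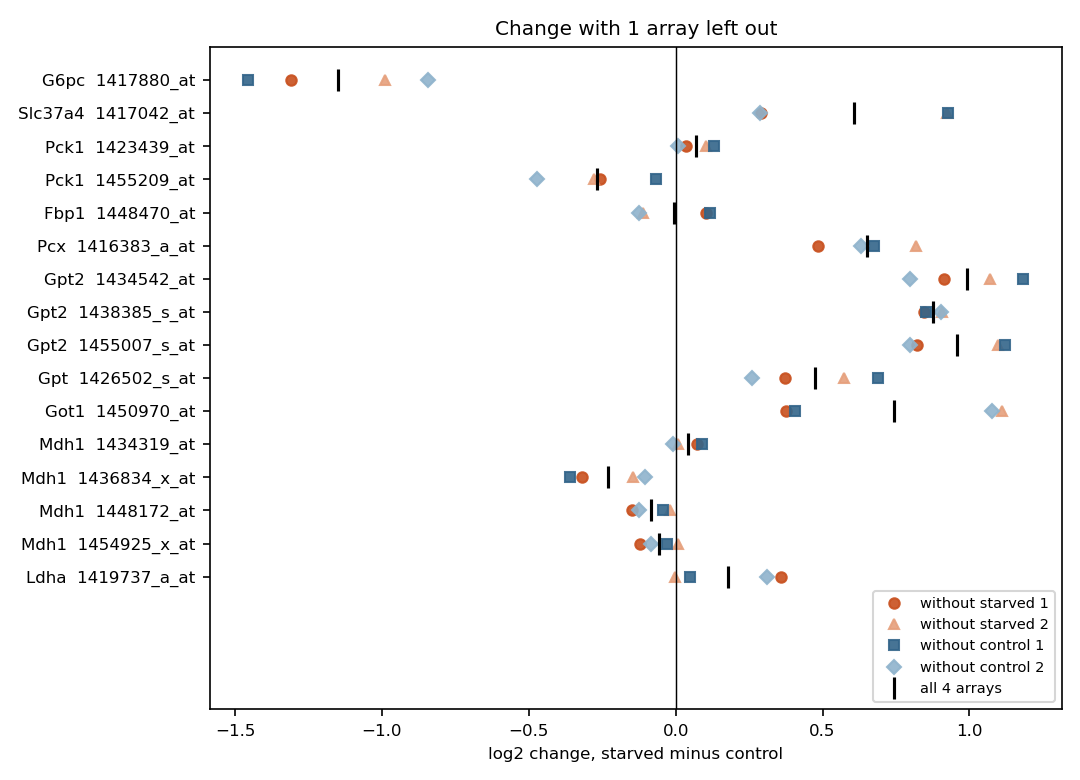
Log2 change, starved minus control (horizontal axis), of each member probe set with all 4 arrays (bars) and with each array left out in turn (symbols). The G6pc values stay between -1.46 and -0.84 and the Gpt2 values between 0.80 and 1.18, whereas Got1 and Slc37a4 spread from 0.38 to 1.11 and from 0.29 to 0.93.

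Related genes are given as 1 value a gene, from whichever probe set had the highest signal. Over all 12393 genes the median change was 0.003, with 0.0646% past the test. Both starved arrays lay above the control arrays for 21.4% and below them for 20.9% of genes, and 5.31% were higher and 6.05% lower at an unadjusted p under 0.05 in limma. Of 9 measured enzymes that share the route or are isoforms of members, 0 passed in limma and 1 had an unadjusted p under 0.05, 2 lay above and 1 below, and the median was 0.07, or -0.0099 without starved 1 and 0.11 without control 2. G6pc3, the widely expressed glucose-6-phosphatase isoform, had 0.41 ± 0.12 (SE), opposite in sign to G6pc. Got2, the mitochondrial partner of Got1, had 0.20 ± 0.12, or 0.11 without control 2. Pgam1, the phosphoglycerate mutase, had -0.21 ± 0.14, or -0.10 without starved 2, -0.12 without control 2 and -0.32 without starved 1. Pck2, the mitochondrial phosphoenolpyruvate carboxykinase, had 0.12 ± 0.12, or 0.04 without starved 2, 0.06 without control 2 and 0.20 without starved 1.

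Of 13 measured carriers that move gluconeogenic substrates or glucose, 8 lay above and 2 below, against 21.4% and 20.9% of all genes. Their median was 0.27, or 0.17 without starved 1, and 0 passed in limma. At an unadjusted p under 0.05 in limma 5 were higher and 1 lower, against 5.31% and 6.05% of all genes. Mpc1 of the mitochondrial pyruvate carrier had a change of 0.56 ± 0.14 (SE), the dicarboxylate carrier Slc25a10 0.49 ± 0.14, and the glutamine transporter Slc38a3 -0.47 ± 0.13. The monocarboxylate transporter Slc16a7 had 1.34 ± 0.38, which was 0.72 without control 2 and 1.96 without control 1. Of 5 genes of glycerol and serine entry, 2 lay above and 2 below, against 21.4% and 20.9% of all genes. The median was 0.05, or 0.16 without starved 1 and -0.05 without starved 2, with 0 past the test in limma. At an unadjusted p under 0.05 in limma 2 were higher and 1 lower, against 5.31% and 6.05% of all genes. Gpd1, the cytosolic glycerol phosphate dehydrogenase, had 0.48 ± 0.15, its mitochondrial counterpart Gpd2 -0.34 ± 0.13, Shmt1, which interconverts serine and glycine, 0.44 ± 0.12, and Agxt, an aminotransferase of serine and alanine, -0.22 ± 0.11.

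Of 10 measured genes of the opposing glycolytic steps, 1 lay above and 3 below, against 21.4% and 20.9% of all genes. The median was -0.12, or -0.025 without starved 1, -0.019 without control 1 and -0.23 without starved 2, with 0 past the test in limma. At an unadjusted p under 0.05 in limma 1 was higher and 2 lower, against 5.31% and 6.05% of all genes. Pfkfb3, which makes an activator of phosphofructokinase, had -1.02 ± 0.19 (SE), and Pklr, the liver pyruvate kinase that works against Pcx and Pck1, had -0.62 ± 0.19, at 8.40 and 8.25 on the starved arrays, against 9.19 and 8.69 on the control arrays. Without control 1 the Pklr change was -0.36. Hk2, a hexokinase, had 0.52 ± 0.19, or 0.28 without control 2. Pfkfb2, a relative of Pfkfb3, had -0.16 ± 0.12, or -0.10 without control 2. Pyruvate dehydrogenase and its kinases decide whether pyruvate is burnt or left for Pcx. Of 7 such genes 4 lay above and 1 below, against 21.4% and 20.9% of all genes, with a median of 0.27. In limma 0 passed the test, and 2 were higher and 0 lower at an unadjusted p under 0.05, against 5.31% and 6.05%. Pdk4, a kinase that switches the complex off, read 6.14 and 5.71 on the starved arrays, against 5.13 and 4.88 on the control arrays, a change of 0.93 ± 0.18. Its relative Pdk1 had 0.89 ± 0.28, or 0.45 without control 2, and the enzyme subunits Pdha1 and Pdhb had 0.27 ± 0.14 and -0.19 ± 0.12. The Pdha1 change was 0.13 without control 2 and 0.42 without control 1.

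**Figure D5:**
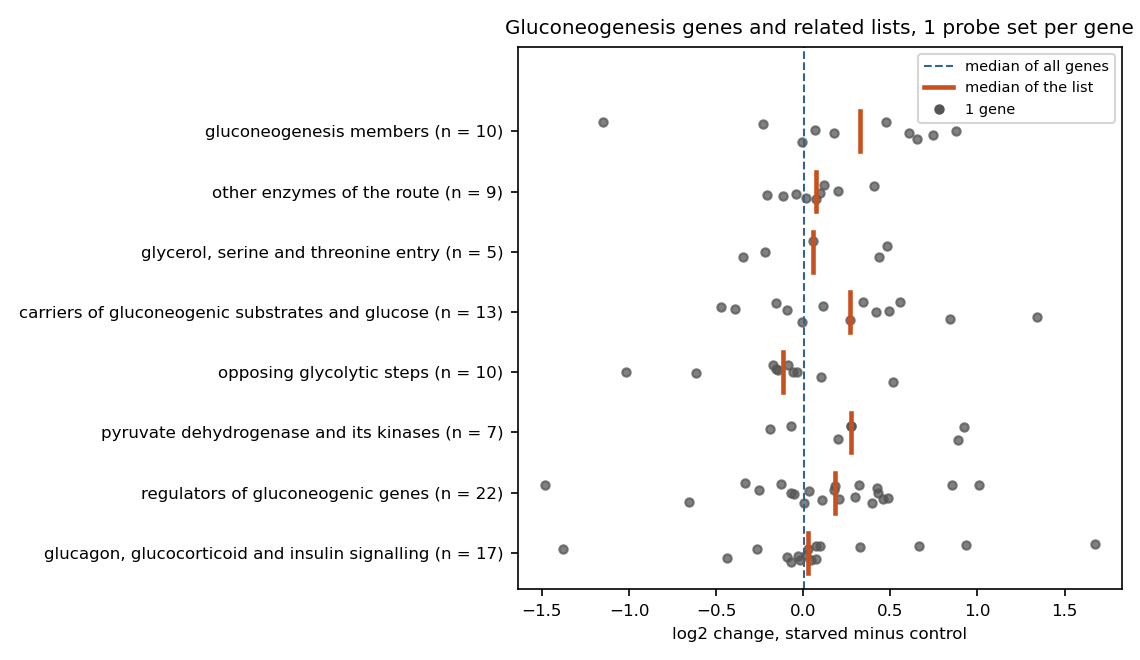
Log2 change, starved minus control (horizontal axis), of each measured gene of the members and of 7 related lists, with 1 probe set per gene, the median of each list as a bar and the median of all genes as a dashed line. The members range from -1.15 to 0.88, and the opposing glycolytic steps have a median of -0.12, or -0.019 without control 1.

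Regulators of these genes were examined in the same way. Of 22 transcription factors and coactivators known to act on gluconeogenic genes, 9 lay above and 3 below, against 21.4% and 20.9% of all genes. The median was 0.18, or 0.12 without control 2, with 0 past the test in limma. At an unadjusted p under 0.05 in limma 2 were higher and 2 lower, against 5.31% and 6.05% of all genes. Foxo1, the forkhead factor that insulin holds out of the nucleus, read 9.82 and 9.67 on the starved arrays, against 9.28 and 9.29 on the control arrays, a change of 0.46 ± 0.12 (SE). Ppargc1a, a coactivator of Pck1 and G6pc, had 1.01 ± 0.40, which was 0.37 without starved 1 and 1.65 without starved 2. Stat3, which mediates cytokine signals in hepatocytes, had -0.66 ± 0.19, Onecut1, a hepatocyte factor, had -1.48 ± 0.56, or -0.66 without control 2 and -2.31 without control 1, and the glucocorticoid receptor Nr3c1 had -0.25 ± 0.13, or -0.14 without starved 1.

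Of 17 genes of glucagon, glucocorticoid and insulin signalling, 4 lay above and 2 below, against 21.4% and 20.9% of all genes. The median was 0.03 and ran from -0.08 without starved 1 to 0.11 without starved 2, with 0 past the test in limma. At an unadjusted p under 0.05 in limma 2 were higher and 1 lower, against 5.31% and 6.05% of all genes. Fkbp5, a chaperone induced through the glucocorticoid receptor, had a change of 1.67 ± 0.27 (SE, adjusted p = 0.112, limma). Tsc22d3, Tat and Per1, listed for the same hormone, had -0.44 ± 0.28, -0.09 ± 0.38 and 0.33 ± 0.22, each with overlapping groups. Pde4b, which breaks down cAMP, had -1.38 ± 0.22 (adjusted p = 0.111, limma). Irs2, an adaptor of the insulin receptor, had 0.66 ± 0.24, or 0.35 without control 2. Igfbp1, which insulin represses, read 12.52 and 11.32 on the starved arrays, against 10.72 and 11.25 on the control arrays, a change of 0.94 ± 0.40 that was 0.33 without starved 1 and 1.54 without starved 2.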

How the data were processed

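Liver RNA of 2 starved and 2 control mice was measured on 4 Affymetrix arrays. The authors deposited log2 signals, for which the submitters' processing notes name RMA and affy. The sources used here give no versions. RMA equalises the arrays, which hides any change shared by all transcripts. Low signals are not read as absence.

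Of 22690 probe sets, 64 Affymetrix controls were left out of the tests. Of the other 22626, 20380 carried 1 gene symbol in the platform annotation, 691 several and 1555 none, and no member shared a probe set with another symbol. Older symbols were replaced by those a RefSeq table of GRCm38.p6 gives for the same Entrez identifier. All 10 members were measured, 9 of them matched the RefSeq promoter table, and 195 of 229 listed genes were measured.

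Starved and control arrays were compared per probe set by limma 3.58.1 (lmFit, then eBayes; R 4.3.3), two-sided and without covariates, with the Benjamini-Hochberg adjustment over all 22626 probe sets and a threshold of 0.05. The median SE of a log2 change was 0.13, with 3.83 prior degrees of freedom. The labels call the samples biological replicates. Precision is limited by having 4 arrays.

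The members and lists were chosen with earlier results of these data known, among them the direction of G6pc, Pcx and Gpt2. Every member probe set is named. Of each list up to 4 genes with the smallest p are named, and Ppargc1a, Foxo1, Nr3c1, Igfbp1, Pklr and Pdk4 in any case. Tsc22d3, Tat and Per1 are named beside Fkbp5. Promoters were shown for members whose tested probe sets all lay on 1 side, where the table held them, and for Pck1. Alternatives were 2 scalings, a filter on low signals, 1 probe set or the mean per gene, removal of _x_at and _s_at sets, trend and robust variance, the replicate number as a block, and each array left out. The member counts without control 2 at an unadjusted p or by overlap were added after the data were seen.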

Additional observations from a re-analysis of the deposited data

How the results depend on the processing

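The count of member probe sets past limma's test was 0 in all settings run except trend and robust variance, where it was 1, Gpt2 with 1438385_s_at. Over all probe sets 13 passed, 4 higher and 9 lower. That count was 8 with 1 probe set per gene, 23 without _x_at and _s_at sets, 59 with trend and robust variance, and 2 to 57 with 1 array left out, the lowest without starved 1 and the highest without control 1. With the replicate number as a replicate block it was 0 in limma, against 13 without. With that block 2534 of 22626 probe sets had an unadjusted p under 0.05 in limma, and 7 of these were among the 16 members. Across all probe sets, same-numbered arrays did not deviate together from their group means (r = 0.04), a figure that cannot show this for single genes. With the block the SE of the Slc37a4 change was 0.11 against 0.29 without, and that of Got1 0.36 against 0.31. The labels name no pairing.

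Member probe sets with groups that do not overlap were 9, and 5 without _x_at and _s_at sets, which leaves 11 member sets. Without control 2 the count was 13, but 70.9% of all probe sets do not overlap there, against 41.9% with all arrays. With 1 control array overlap is rarer for any probe set, so this rise is not read as a result about the members. Changes that turned sign were small: the strong Pck1 set came to -0.10 with the mean of both sets per gene, and with 1 array left out Fbp1 ran from -0.13 to 0.12, turning without starved 1 (0.10) or control 1, Ldha from -0.0022 (without starved 2) to 0.36, Mdh1 with 1454925_x_at from -0.12 to 0.0066 (without starved 2), and Mdh1 with 1434319_at from -0.0081 (without control 2) to 0.089. G6pc, Slc37a4, Pcx, Gpt2, Gpt and Got1 kept their sign in every setting run. For all of these but Slc37a4 the groups do not overlap, so leaving out 1 array could not turn the sign. The filter, the removal of sets, the variance settings and the block leave the change of a probe set as it is. The kept signs therefore add no support. Where 1 array was left in a group, its spread was taken from the group of 2. Replication of 2 mice a group and the unknown last meal of the controls limit what these arrays can show.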

Other observations

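Gluconeogenesis is known to be strongest in the hepatocytes around the portal vein, so markers of that zone and of the zone around the central vein were read beside the members. The genes named were picked with their values in view. The summed periportal signal was 16.07 and 15.72 on the starved arrays, against 15.87 and 15.77 on the control arrays, and the summed pericentral signal was 15.66 and 15.87 on the starved arrays, against 15.81 and 15.74 on the control arrays (log2), both with overlapping groups. Within each list, genes lay apart in both directions. Of 7 periportal markers 2 lay above and 1 below, and of 10 pericentral markers 3 lay above and 4 below. The shares over all genes were 21.4% above and 20.9% below. The periportal urea cycle enzyme Asl read 13.28 and 12.54 on the starved arrays, against 11.97 and 11.78 on the control arrays, a change of 1.03 ± 0.25 (SE) that did not pass (adjusted p = 0.235, limma) and was 0.67 without starved 1. Cyp2f2, another periportal gene, had -0.26 ± 0.13, with both starved arrays below. The pericentral enzyme Cyp1a2 read 11.81 and 12.05 on the starved arrays, against 13.09 and 12.99 on the control arrays, a change of -1.10 ± 0.13 (adjusted p = 0.0744, limma). The pericentral genes Slc1a2 and Oat had 0.40 ± 0.14 and 0.43 ± 0.19, with both starved arrays above, and Oat had 0.16 without starved 2. Arg1 and Glul, which define the periportal urea cycle and pericentral glutamine synthesis, had changes of 0.16 ± 0.13 and 0.11 ± 0.12, or 0.03 without starved 1 and 0.04 without starved 2.

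The summed signal of 5 pancreatic acinar markers was 9.73 and 10.00 on the starved arrays, against 10.88 and 10.84 on the control arrays. This rested on Cela1, at 9.12 and 9.46 on the starved arrays, against 10.62 and 10.58 on the control arrays. Cela2a, Ctrb1, Cpa1 and Prss2 had changes of -0.20, -0.04, -0.03 and 0.09, each with overlapping groups.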
